A study of Mus musculus with 4 samples.

Results

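The genes described here are 7 matrix metalloproteinases, Mmp2, Mmp3, Mmp7, Mmp9, Mmp12, Mmp14 and Mmp15, and 3 tissue inhibitors of metalloproteinases, Timp1, Timp2 and Timp3. They were chosen by name and found by exact gene symbol, and all 10 were listed among the 24391 genes of each count table. Transcripts were counted by RNA sequencing in 4 mouse lung tumour samples, 2 labelled K-Ras (design text K-RasLSL-G12D) and 2 labelled K-Ras Mll4-/- (design text K-RasLSL-G12D;Mll4fl/fl). All 4 therefore carried the activatable K-Ras G12D allele, and the second group also carried floxed alleles of Mll4, now named Kmt2d, which encodes a histone methyltransferase acting mainly at enhancers. The Cre that recombined the alleles, and the strain, age and number of mice behind each sample, are not given in the sources used here, so the p-values measure only the spread between these samples. In every sample, cells bearing CD45, the antigen common to leukocytes, had been depleted from tumour tissue digested with collagenase and trypsin before RNA extraction. The comparison asked how the level of each transcript in the K-Ras Mll4-/- tumours differed from that in the K-Ras tumours.

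Matrix metalloproteinases are zinc-dependent enzymes that cut collagens, elastin, laminins and other proteins outside the cell. They are made as inactive proenzymes and are opened by other proteases, and the inhibitors bind the active site of the mature enzyme. In lung, fibroblasts, macrophages, neutrophils and epithelial cells each make a different subset, and tumours draw on several of these sources.

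Between 26683033 and 36677987 reads per sample were assigned to genes, with overlap between the groups. Kmt2d was at 395 and 526 CPM (counts of a gene relative to the library's gene reads, TMM-normalised and scaled to 1e+06) in the K-Ras samples and at 367 and 317 CPM in the K-Ras Mll4-/- samples. Its log2 fold change was -0.43 (SE 0.21, edgeR quasi-likelihood adjusted p = 0.302), so the loss of Mll4 is taken from the labels. It was -0.065 with GC and length offsets and -0.23 without K-Ras replicate 2. Reads were counted over the whole gene, and which exons the floxed allele loses is not given in the sources used here, so this level does not check the deletion. Ptprc, the CD45 gene, was still present at 143 to 274 CPM. Summed epithelial markers were higher in both K-Ras Mll4-/- samples and summed fibroblast and endothelial markers lower. K-Ras replicate 1 was highest in summed neutrophil, macrophage, fibroblast and mural cell markers and K-Ras replicate 2 in ciliated, club and alveolar type 2 cell markers. These are bulk samples, so fewer cells of a type and less RNA per cell cannot be told apart.

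Promoter sequence is shown first, because the genes of the set differ in motifs often described in Mmp promoters. RefSeq windows of 250 bases upstream of an annotated start (assembly GRCm38.p6) were matched by symbol for 8 of the 10 genes, all but Mmp2 and Mmp9. Of these, 3 hold the AP-1 motif TGAGTCA or its reverse complement TGACTCA, a binding sequence of the Fos and Jun factors, against 4.46% of the 32851 windows of this length. All 3 belong to the run of 10 neighbouring Mmp genes on chromosome 9. The first is Mmp3, the stromelysin gene, the second Mmp7, the matrilysin gene, and the third Mmp12, the macrophage metalloelastase gene. Capitals mark AP-1 motifs, TATAAA on the gene strand and the PEA3 motif AGGAAG or its reverse complement CTTCCT. The marked motifs do not overlap each other in these windows. Mmp7 and Mmp12 each have a second annotated start, whose window holds a PEA3 motif and no AP-1 motif or TATAAA.
Mmp3 (chr9:7445572-7445821, plus strand): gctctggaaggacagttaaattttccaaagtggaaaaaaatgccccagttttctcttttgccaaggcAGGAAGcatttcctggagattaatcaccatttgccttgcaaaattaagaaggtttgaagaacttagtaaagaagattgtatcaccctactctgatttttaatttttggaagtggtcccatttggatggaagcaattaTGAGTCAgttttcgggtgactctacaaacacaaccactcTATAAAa
Mmp7 (chr9:7691840-7692089, plus strand): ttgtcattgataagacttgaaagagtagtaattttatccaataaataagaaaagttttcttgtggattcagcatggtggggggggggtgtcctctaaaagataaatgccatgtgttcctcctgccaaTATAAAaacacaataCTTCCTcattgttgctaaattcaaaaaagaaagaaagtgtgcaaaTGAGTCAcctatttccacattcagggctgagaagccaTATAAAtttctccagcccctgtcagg
Mmp12 (chr9:7347124-7347373, plus strand): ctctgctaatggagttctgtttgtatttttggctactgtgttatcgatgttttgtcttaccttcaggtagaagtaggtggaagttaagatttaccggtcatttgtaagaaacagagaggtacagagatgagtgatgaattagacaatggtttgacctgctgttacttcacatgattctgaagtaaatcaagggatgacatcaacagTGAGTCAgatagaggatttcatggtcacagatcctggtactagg
In the Mmp3 window the AP-1 motif begins 46 bases before the start, in the Mmp7 window 63 bases and in the Mmp12 window 44 bases. The GC content of the 3 windows was 37.6%, 38% and 39.6%. In the whole run on chromosome 9, 7 of 10 genes had an AP-1 motif and 6 had AP-1 and TATAAA in the same window, a pairing found in 0.481% of all windows. Outside that run, 0 of 12 Mmp and Timp genes with a window had the AP-1 motif. TATAAA occurs in 7.59% of all windows and the PEA3 motif in 29.5%.

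The windows of Mmp15 and Timp2 are shown for contrast. Mmp15 encodes a membrane-anchored metalloproteinase and Timp2 an inhibitor that also takes part in activating pro-MMP2 at the cell surface. Mmp2, Mmp15 and Timp2 were the 3 genes of the set whose groups did not overlap. All 3 were lower in K-Ras Mll4-/- tumours, as were 28.5% of all tested genes without overlap.
Mmp15 (chr8:95352046-95352295, plus strand): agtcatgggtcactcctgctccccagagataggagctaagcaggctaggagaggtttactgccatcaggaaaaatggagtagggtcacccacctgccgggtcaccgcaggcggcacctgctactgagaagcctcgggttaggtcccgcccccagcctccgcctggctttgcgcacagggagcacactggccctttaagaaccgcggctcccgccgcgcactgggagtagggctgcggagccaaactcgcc
Timp2 (chr11:118355412-118355661, minus strand): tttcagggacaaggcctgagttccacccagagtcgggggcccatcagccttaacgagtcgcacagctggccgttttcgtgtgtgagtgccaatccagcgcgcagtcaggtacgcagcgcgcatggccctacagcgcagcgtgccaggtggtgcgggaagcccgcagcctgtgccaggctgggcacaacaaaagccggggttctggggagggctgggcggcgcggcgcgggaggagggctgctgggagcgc
Neither window holds any of the searched motifs. Their GC contents were 63.6% and 68%, above the median of 52.4% for all windows, and they held 14 and 21 CpG dinucleotides against 1 for Mmp3, 0 for Mmp7 and 2 for Mmp12 in the windows shown. The window of the second Mmp7 start has 7 CpG dinucleotides and a GC content of 53.2%. The windows of Timp3, Mmp14 and Timp1, genes whose groups overlapped, also lack AP-1 and TATAAA. They held 18, 10 and 6 CpG dinucleotides at GC contents of 65.6%, 55.2% and 54.4%. These letters describe the sequence alone, since binding was not measured.

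Mmp7 had 0 reads in all 4 samples. A count of 0 allows up to 3 reads, or between 0.0818 and 0.112 CPM without TMM scaling in these libraries, covering counting error only. It was not tested. Its AP-1 and TATAAA letters thus stood beside 0 reads, as did those of Mmp1a, a gene outside the set. Mmp3, whose window also holds both motifs at other positions, had 115 to 376 reads per sample. The other 9 genes of the set had at least 115 reads in every sample and all passed the count filter.

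Compared per transcript length (RPKM, CPM per kilobase of the longest GENCODE M21 transcript), Timp3 was the most abundant of the 10 in both groups. Timp3, an inhibitor that stays bound to the extracellular matrix, was at 218 ± 110.4 RPKM in K-Ras and 254 ± 41.9 RPKM in K-Ras Mll4-/- tumours (SD, n = 2 each). It made up 36.4% of the summed RPKM of the set in K-Ras replicate 1 and between 61.8% and 66.3% in the other 3 samples. In the K-Ras tumours the levels of Timp2 (48.6 RPKM), Mmp15 (45.6 RPKM), Mmp14 (36.1 RPKM), Timp1 (34.3 RPKM) and Mmp2 (28.4 RPKM) followed, and each overlapped the next in its sample values. Mmp12, Mmp9 and Mmp3 came lowest among the detected genes, at 6.41, 3.43 and 3.14 RPKM, and also overlapped one another. The Mmp12 value rests on a length of 4474 bases. The annotation behind the counts, whose lengths may differ, is not given.

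In the K-Ras Mll4-/- tumours Mmp14 stood second at 45.2 RPKM, ahead of Timp2 at 35.2 RPKM and Mmp15 at 24.1 RPKM, with no overlap between these neighbours. Timp1 at 14.0 RPKM overlapped Mmp2 at 12.9 RPKM. Mmp3, Mmp12 and Mmp9 were again lowest, at 4.45, 3.22 and 2.12 RPKM, where Mmp3 overlapped Mmp12 and Mmp12 overlapped Mmp9. The summed RPKM of the inhibitors exceeded that of the proteases in every sample, by a ratio of 1.83 and 3.19 in the K-Ras samples and 2.94 and 3.65 in the K-Ras Mll4-/- samples. The groups overlapped in this ratio. Without Timp3 the ratio was below 1 in every sample, at 0.800 and 0.519 in the K-Ras and 0.503 and 0.566 in the K-Ras Mll4-/- samples.

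**Figure D1:**
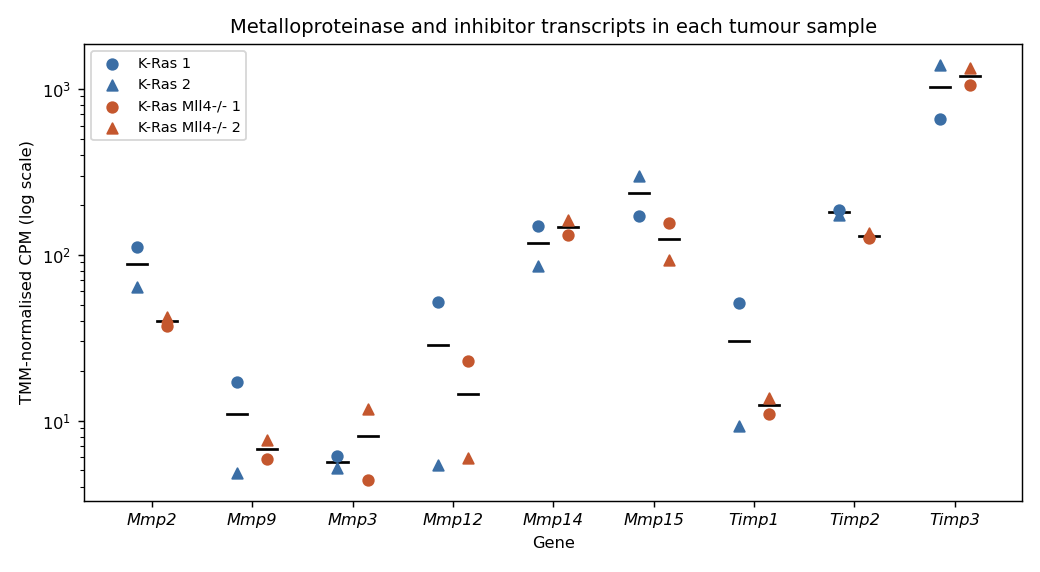
TMM-normalised CPM on a log axis for the 9 detected genes in each of the 4 samples, with K-Ras in blue, K-Ras Mll4-/- in orange, circles for replicate 1, triangles for replicate 2 and a bar at each group mean. Mmp2, Mmp15 and Timp2 do not overlap between groups, while Mmp12 spans 5.40 to 52.0 CPM within the K-Ras group.

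Across the 16001 genes tested, the edgeR quasi-likelihood test called 6 at an adjusted p under 0.05 (0.0375%), and 0 of the 9 tested proteases and inhibitors were among them. At an unadjusted p under 0.05 there were 2, Mmp2 and Timp2, both lower in K-Ras Mll4-/- tumours. By that criterion 21.8% of all tested genes differed, 10.4% lower and 11.4% higher. DESeq2 and the edgeR likelihood ratio test each called 1 of the 9, Mmp2, while limma-voom and a fit blocked by replicate number each called 0. DESeq2 called 10% of all tested genes (4.98% lower), the likelihood ratio test 9.39% (4.54% lower) limma-voom 0% and the block fit 1.36% (0.112% lower). Both K-Ras Mll4-/- samples lay below both K-Ras samples for 3 of the 9 genes, against 28.5% of all tested genes, and above them for 0 of 9, against 29.9%. In either direction 58.3% of all tested genes did not overlap, so the 3 of 9 is not above the background. The median log2 fold change of the 9 was -0.69 and that of all tested genes -0.01.

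The gelatinases were taken first. Mmp2 encodes gelatinase A, an enzyme of fibroblasts and other stromal cells that cuts denatured collagen and basement membrane collagen. It was at 111 and 63.9 CPM in the K-Ras samples and at 37.1 and 42.1 CPM in the K-Ras Mll4-/- samples. The higher of the K-Ras Mll4-/- samples was thus below the lower K-Ras sample, and the K-Ras pair was the more widely spread. The group means were 87.4 ± 33.2 CPM and 39.6 ± 3.54 CPM (SD, n = 2 each), 2.20-fold lower by the fitted log2 fold change of -1.14 (SE 0.30). The difference was not called by the edgeR quasi-likelihood test (adjusted p = 0.177, unadjusted p = 0.0151) and was called by DESeq2 (adjusted p = 0.0121) and the likelihood ratio test (adjusted p = 0.0147). Without K-Ras replicate 1 the log2 fold change was -0.69.

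Mmp9 encodes gelatinase B, a protease stored in neutrophils and also made by macrophages and tumour cells. It was at 17.0 and 4.81 CPM in the K-Ras samples and at 5.83 and 7.66 CPM in the K-Ras Mll4-/- samples. K-Ras replicate 1 was the single high sample, and both K-Ras Mll4-/- samples lay between the K-Ras samples. On the log2 scale Mmp9 was fitted at -0.69 with an SE of 0.64 (edgeR adjusted p = 0.560), and at 0.49 without K-Ras replicate 1.

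The stromelysin gene Mmp3 encodes an enzyme of broad specificity that also activates other proMMPs. It was at 6.15 and 5.17 CPM in the K-Ras samples and at 4.38 and 11.7 CPM in the K-Ras Mll4-/- samples. The K-Ras Mll4-/- samples thus held the highest and the lowest value. Its log2 fold change, 0.51 (SE 0.52, edgeR adjusted p = 0.597), reversed to -0.38 without K-Ras Mll4-/- replicate 2.

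Mmp12 encodes an elastin-cutting enzyme made chiefly by macrophages, and it varied most between replicates. It was at 52.0 and 5.40 CPM in the K-Ras samples and at 22.9 and 5.93 CPM in the K-Ras Mll4-/- samples. Replicate 1 of each group was high and replicate 2 of each group low, by 9.63-fold in K-Ras and 3.86-fold in K-Ras Mll4-/- tumours. Its fitted log2 fold change was -0.99 with an SE of 1.2 (edgeR adjusted p = 0.656), and it reversed to 1.41 without K-Ras replicate 1.

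The summed CPM of 8 macrophage markers was 1215 and 305 in the K-Ras samples and 1006 and 404 in the K-Ras Mll4-/- samples, so it was high and low in the same samples as Mmp12. All 8 markers were tested, and 0 had groups that did not overlap. No macrophage marker was at 0 reads in any sample. The part of macrophage content in the Mmp12 values was not tested. The log2 fold changes of 7 of the 8 lay between -0.15 (Csf1r) and 0.28 (Adgre1), 4 of them positive. The remaining gene, Marco, a scavenger receptor gene of alveolar macrophages named after its values were seen, stood apart at -3.62, with 211 and 9.19 CPM in the K-Ras and 14.6 and 3.38 CPM in the K-Ras Mll4-/- samples.

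The membrane-type enzymes differed from each other in direction. Mmp14 encodes MT1-MMP, a cell-surface collagenase that activates pro-MMP2. It was at 149 and 84.9 CPM in the K-Ras samples and at 131 and 161 CPM in the K-Ras Mll4-/- samples. K-Ras replicate 2 was the low sample, and the other 3 lay within 131 to 161 CPM. For Mmp14 the log2 fold change was 0.32 (SE 0.31, edgeR adjusted p = 0.570), and without K-Ras replicate 2 it was -0.039.

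Mmp15 encodes MT2-MMP, a related membrane enzyme found in epithelia. It was at 170.2 and 298 CPM in the K-Ras samples and at 154 and 93.5 CPM in the K-Ras Mll4-/- samples. The groups did not overlap, but K-Ras replicate 1 and K-Ras Mll4-/- replicate 1 differed by less than the replicates of either group did. Mmp15 was thus fitted at -0.92 on the log2 scale (SE 0.38) and missed the threshold of the edgeR quasi-likelihood test (adjusted p = 0.256). This value was -0.47 without K-Ras replicate 2, -1.32 without K-Ras Mll4-/- replicate 1 and -0.64 with GC and length offsets.

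K-Ras replicate 2, the sample highest in Mmp15, was also highest in airway and alveolar type 2 markers. The summed CPM of 4 ciliated cell markers was 82.4 and 519 in the K-Ras and 44.3 and 50.5 in the K-Ras Mll4-/- samples. That of 3 club cell markers was 647 and 3430 in the K-Ras and 702 and 539 in the K-Ras Mll4-/- samples. That of 6 alveolar type 2 markers was 17074 and 28567 in the K-Ras and 23513 and 24720 in the K-Ras Mll4-/- samples, with overlap. The 4 general epithelial markers ran the other way from Mmp15 between groups. They summed to 772 and 1277 CPM in the K-Ras and 2759 and 2795 CPM in the K-Ras Mll4-/- samples. No marker of these lists was at 0 reads in any sample. Their part in the Mmp15 values was not tested.

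Among the inhibitors, Timp2 was the most even within groups. It was at 186 and 174 CPM in the K-Ras samples and at 126 and 135 CPM in the K-Ras Mll4-/- samples. Replicates differed by 1.07-fold in each group, and the gap between the groups was wider than that. On the log2 scale the difference was -0.47 (SE 0.13), or 1.38-fold lower, which missed the threshold (edgeR quasi-likelihood adjusted p = 0.178, unadjusted p = 0.0178; DESeq2 adjusted p = 0.0960). Over the fits that each left out a sample it stayed between -0.53 and -0.41, and with GC and length offsets it was weaker, at -0.35.

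Timp1 encodes a secreted inhibitor whose gene responds to inflammatory cytokines and growth factors. It was at 51.3 and 9.27 CPM in the K-Ras samples and at 11.0 and 13.7 CPM in the K-Ras Mll4-/- samples. As with Mmp9, K-Ras replicate 1 was the single high sample, 5.54-fold above K-Ras replicate 2. For Timp1 the log2 fold change was -1.29 (SE 0.82, edgeR adjusted p = 0.405), and without K-Ras replicate 1 it reversed to 0.42.

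Timp3 was at 659 and 1396 CPM in the K-Ras samples and at 1058 and 1338 CPM in the K-Ras Mll4-/- samples. K-Ras replicate 1 was the low sample here, and K-Ras replicate 2 the highest of the 4. Its log2 fold change was 0.22 (SE 0.41, edgeR adjusted p = 0.782), and without K-Ras replicate 1 it reversed to -0.22. In GENCODE M21, 21.3% of the Timp3 exon bases also lie in exons of Syn3, and reads there could be tallied as ambiguous and not counted for Timp3. Of the other genes of the set, Mmp12 and Mmp7 share exon bases with a neighbour (2.17% and 11.5%), and the remaining 7 share none.

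**Figure D2:**
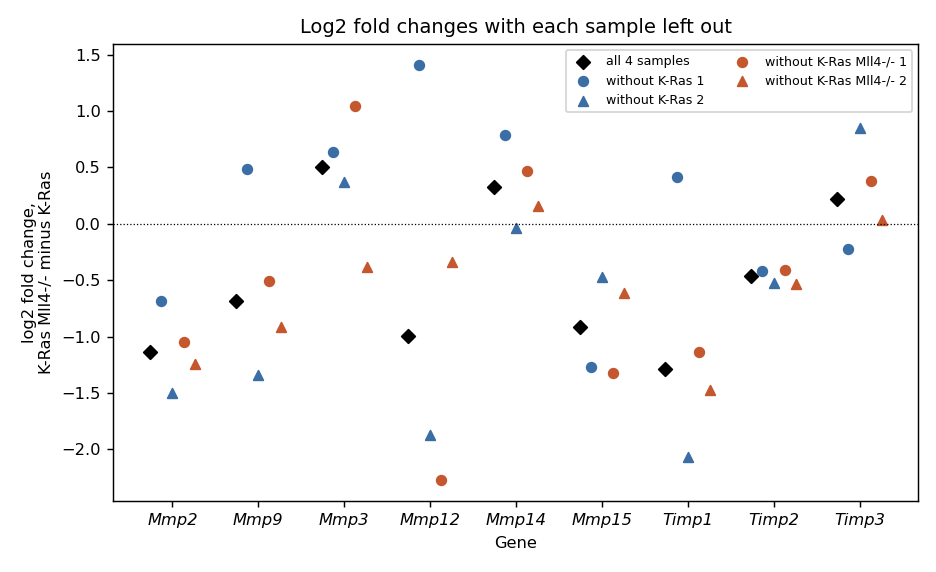
Log2 fold change (K-Ras Mll4-/- minus K-Ras, vertical axis) of each tested gene with all 4 samples (black) and with 1 sample left out (blue for a K-Ras sample, orange for a K-Ras Mll4-/- sample). Mmp2, Mmp15 and Timp2 stay below 0 in all 5 fits, and each of the other 6 genes crosses 0 in 1 of them.

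Spread within groups was set beside that of all genes. The K-Ras replicates differed by more than 2-fold for 4 of the 9 genes, Mmp9, Mmp12, Timp1 and Timp3, where 13.7% of all tested genes did. The K-Ras Mll4-/- replicates differed by more than 2-fold for 2 of the 9, Mmp3 and Mmp12, where 6.72% of all tested genes did.

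Mmp9 and Timp1 were both high in K-Ras replicate 1. The summed CPM of 5 neutrophil markers was 217 and 72.1 in the K-Ras samples and 68.5 and 65.9 in the K-Ras Mll4-/- samples, so it too was high in that sample alone, and none of the 5 was at 0 reads anywhere. Of the 5, 4 were lower in both K-Ras Mll4-/- samples (28.5% of all tested genes), and Cxcr2, a chemokine receptor gene, was higher in both (29.9%). S100a8, a marker of this list named after its values were seen, was at 69.2 CPM in K-Ras replicate 1 and at 15.5 to 17.9 CPM in the other 3. Ly6g, the remaining neutrophil marker, was not matched. Mmp8, the neutrophil collagenase gene described below, was instead highest in K-Ras replicate 2, at 16.7 CPM against 11.5 CPM in K-Ras replicate 1. K-Ras replicate 1 was also the highest sample in the macrophage (1215 CPM), fibroblast (343 CPM) and mural cell (279 CPM) sums. The part of neutrophil, macrophage or stromal content in the Mmp9 and Timp1 values was not tested.

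Mmp2 and Timp2 were lower in the samples with the lower fibroblast markers. The summed CPM of 5 fibroblast markers was 343 and 257 in the K-Ras samples and 157 and 158 in the K-Ras Mll4-/- samples. Of the 5, 4 had groups that did not overlap, all lower in K-Ras Mll4-/- tumours, against 28.5% of all tested genes, and none was at 0 reads. The remaining gene, Lum, overlapped at 3.92 and 6.53 CPM in the K-Ras and 5.67 and 6.27 CPM in the K-Ras Mll4-/- samples (log2 fold change 0.19). The 6 mural cell markers summed to 279 and 210 CPM in the K-Ras and 213 and 183 CPM in the K-Ras Mll4-/- samples, so the groups overlapped. The 6 endothelial markers summed to 3849 and 4047 CPM in the K-Ras and 2903 and 2270 CPM in the K-Ras Mll4-/- samples. Of these 6, 4 were lower in both K-Ras Mll4-/- samples, while Kdr (log2 fold change -0.17) and Emcn (0.19) overlapped. The 4 epithelial markers went the other way, at 772 and 1277 CPM against 2759 and 2795 CPM. The part of stromal content in the Mmp2 and Timp2 values was not tested. Of 4 mesothelial markers, 2 were tested, and the sum of all 4, 14.8 and 18.3 CPM in the K-Ras and 121 and 222 CPM in the K-Ras Mll4-/- samples, was almost all Msln, a gene that tumour cells can also express.

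**Figure D3:**
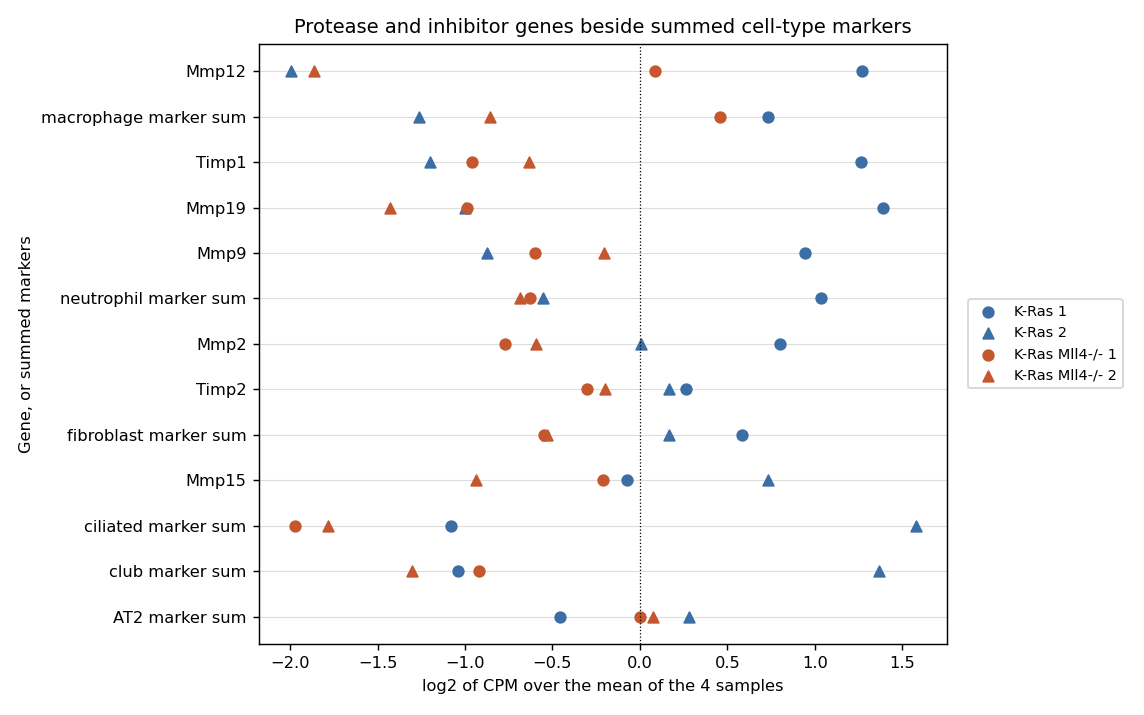
Log2 of CPM over the mean of the 4 samples (horizontal axis) for 6 of the genes, Mmp19 and 6 summed marker lists, with colours and symbols by group and replicate. Mmp12 and the macrophage sum are high in replicate 1 of both groups, and Mmp9, Timp1, Mmp19 and the neutrophil sum in K-Ras replicate 1 alone. Mmp15 and the ciliated, club and alveolar type 2 sums are highest in K-Ras replicate 2. Not drawn is the epithelial sum, which was higher in both K-Ras Mll4-/- samples.

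The rest of the family was described from a list of 17 further Mmp and Timp genes. Of these, 3 were not tested: Mmp1a with 0 reads, Mmp1b with at most 3 reads and Mmp20 with at most 1 read per sample. Another 4, Mmp10, Mmp21, Mmp27 and Timp4, were tested on a mean of under 30 reads. The log2 fold changes of the remaining 10 were all negative, with TMM, 2 other size-factor scalings, total counts and GC and length offsets. With TMM scaling 49.7% of tested genes at that depth were negative, and the median of the 10 was -0.57. The share was not taken for the other settings. The median of all tested genes was -0.013 with TMM, -0.071 with upper-quartile and -0.065 with total-count scaling. By the edgeR quasi-likelihood test 0 of the 14 tested genes were called, and 2, Mmp28 and Timp4, had an unadjusted p under 0.05. DESeq2 called 1, Mmp28, the likelihood ratio test 1, Timp4, and limma-voom 0. Over all tested genes, 21.8% had an edgeR quasi-likelihood unadjusted p under 0.05 (10.4% lower). DESeq2 called 10% of them and the likelihood ratio test 9.39%. Leaving out K-Ras replicate 1 turned Mmp11 (0.028), Mmp16 (0.81) and Mmp25 (1.01) positive.

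Mmp28 encodes epilysin, a secreted enzyme of epithelia. It was at 22.0 and 31.3 CPM in the K-Ras samples and at 16.0 and 11.9 CPM in the K-Ras Mll4-/- samples, with no overlap (log2 fold change -0.94, SE 0.26, edgeR adjusted p = 0.181). Timp4, the fourth inhibitor, had 29 and 57 reads in the K-Ras samples and 6 and 7 reads in the K-Ras Mll4-/- samples (log2 fold change -2.49, SE 0.52, edgeR adjusted p = 0.154). Mmp8, the neutrophil collagenase gene, was at 11.5 and 16.7 CPM against 9.75 and 4.03 CPM (log2 fold change -1.03, SE 0.49, edgeR adjusted p = 0.297). The Mmp8 value was -0.54 without K-Ras Mll4-/- replicate 2 and -1.80 without K-Ras Mll4-/- replicate 1. All 3 were lower in both K-Ras Mll4-/- samples, as were 9 of the 14 tested genes of this list in all, against 28.5% of all tested genes.

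Mmp19 followed Timp1 and Mmp9 in its sample pattern, at 55.7 and 10.6 CPM in the K-Ras samples and 10.7 and 7.88 CPM in the K-Ras Mll4-/- samples. Mmp19 was fitted at -1.83 on the log2 scale with an SE of 0.82 (edgeR adjusted p = 0.274), and at -0.20 without K-Ras replicate 1. Mmp13, Mmp17 and Mmp23 were also below the K-Ras values in both K-Ras Mll4-/- samples, with log2 fold changes of -0.86, -0.28 and -0.16. Mmp24, which codes for a membrane-type enzyme like Mmp14, overlapped between the groups, at -0.99. Without K-Ras replicate 1 Mmp13 was at -0.20 and Mmp24 at -0.0017. For the low-count Mmp10, Mmp21 and Mmp27, also without overlap, the log2 fold changes were -0.99, -0.78 and -0.83. With all 4 samples Mmp11, Mmp16 and Mmp25 were at -0.21, -0.19 and -0.23.

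**Figure D4:**
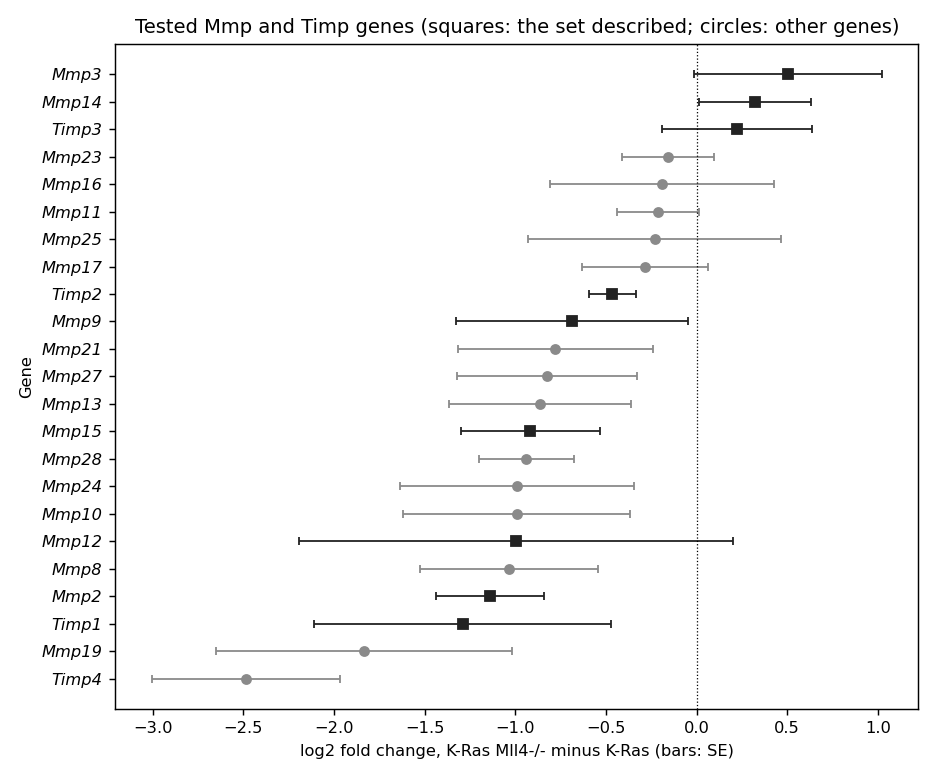
Log2 fold change (K-Ras Mll4-/- minus K-Ras, horizontal axis, bars SE) of the 23 tested Mmp and Timp genes, with squares for the 9 tested genes of the set and circles for the 14 others. Mmp3, Mmp14 and Timp3 are the 3 to the right of 0, and none of the 23 was called by the edgeR quasi-likelihood test.

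The proteins that open, hold or restrain these proteases were taken from further lists, in none of which limma-voom called a gene. Of 10 activators and modulators, 3 were higher and 1 lower at an unadjusted p under 0.05, and the edgeR quasi-likelihood test called 0. By DESeq2, and also by the likelihood ratio test, 2 were called higher and 1 lower. Over all tested genes, 10.4% were lower and 11.4% higher at that unadjusted p, and DESeq2 called 10% and the likelihood ratio test 9.39%. These shares are the background of each list below. Pcsk6, a proprotein convertase of the furin type that trims proproteins, was at 21.5 and 68.9 CPM in the K-Ras samples and at 225 and 463 CPM in the K-Ras Mll4-/- samples. The groups did not overlap, and the log2 fold change was 2.93 (SE 0.70, edgeR adjusted p = 0.167; DESeq2 adjusted p = 1.79e-05). It ran from 2.31 to 3.98 over the samples left out, lowest without K-Ras Mll4-/- replicate 2 and highest without K-Ras replicate 2. Bsg, which encodes the MMP-inducing surface protein basigin, was at 280.1 and 374 CPM against 556 and 621 CPM, also without overlap (log2 fold change 0.85, SE 0.21, edgeR adjusted p = 0.168; DESeq2 adjusted p = 0.00928).

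Of the 8 genes of the plasminogen system, the serine protease cascade that activates several proMMPs, 7 were tested, 0 were called by the edgeR quasi-likelihood test, DESeq2 or the likelihood ratio test, and 1 was lower at an unadjusted p under 0.05. That was Serpine2, a protease inhibitor gene, at 146 and 123 CPM in the K-Ras and 101 and 82.3 CPM in the K-Ras Mll4-/- samples (log2 fold change -0.55, SE 0.17, edgeR adjusted p = 0.191). Plat, the tissue plasminogen activator gene, overlapped between groups at 73.9 and 88.8 CPM against 64.6 and 77.3 CPM (log2 fold change -0.20, SE 0.17, edgeR adjusted p = 0.518).

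The related ADAM and ADAMTS metalloproteinases numbered 18, all tested, with 14 negative and 4 positive log2 fold changes (13 negative with GC and length offsets). Of all tested genes, 51.2% had a negative log2 fold change. At an unadjusted p under 0.05, 7 of the 18 were lower and 2 higher, against 10.4% and 11.4% of all tested genes. The edgeR quasi-likelihood test called 0, DESeq2 4 lower and 1 higher, and the likelihood ratio test 3 lower and 1 higher. Adamts15, a proteoglycan-cutting enzyme gene, was at 49.5 and 43.3 CPM in the K-Ras samples and at 17.3 and 13.3 CPM in the K-Ras Mll4-/- samples. The replicates lay close together and the log2 fold change was -1.60 (SE 0.19, edgeR adjusted p = 0.126; DESeq2 adjusted p = 1.33e-07). Adamts10, a gene linked to fibrillin microfibrils, was at 144 and 129 CPM against 79.0 and 72.7 CPM (log2 fold change -0.85, SE 0.13, edgeR adjusted p = 0.138; DESeq2 adjusted p = 6.86e-04).

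The 8 cathepsins, lysosomal proteases that also act on matrix, had 7 positive log2 fold changes, or 6 with upper-quartile or total-count scaling. Of the 8, 2 were higher at an unadjusted p under 0.05. These 2, Ctsh and Ctsc, were called by DESeq2 and the likelihood ratio test, and 0 by the edgeR quasi-likelihood test. Ctsh was at 537 and 688 CPM in the K-Ras and 1447 and 2296 CPM in the K-Ras Mll4-/- samples (log2 fold change 1.61, SE 0.31, edgeR adjusted p = 0.147). Ctsc was at 308 and 336 CPM against 572 and 557 CPM (log2 fold change 0.81, SE 0.16, edgeR adjusted p = 0.147).

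Of 14 matrix proteins that these enzymes cut, 13 had negative log2 fold changes with TMM scaling and 9 with GC and length offsets. The median was -0.37 with TMM scaling, and 3 were lower at an unadjusted p under 0.05. The edgeR quasi-likelihood test called 0, while Eln and Vcan, 2 of the 3, passed in DESeq2 and in the likelihood ratio test. Eln, the elastin gene and so that of the substrate of MMP12, was at 1165 and 614 CPM in the K-Ras samples and at 394 and 341 CPM in the K-Ras Mll4-/- samples (log2 fold change -1.27, SE 0.36, edgeR adjusted p = 0.181). The Eln value was -0.74 without K-Ras replicate 1. Vcan, the versican proteoglycan gene, was at 23.7 and 36.4 CPM against 13.1 and 14.3 CPM (log2 fold change -1.13, SE 0.25, edgeR adjusted p = 0.159). Without K-Ras replicate 1 Vcan was called (-1.41, edgeR adjusted p = 0.0422). The groups did not overlap for either gene, as for 9 of the 14 in this direction, against 28.5% of all tested genes.

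**Figure D5:**
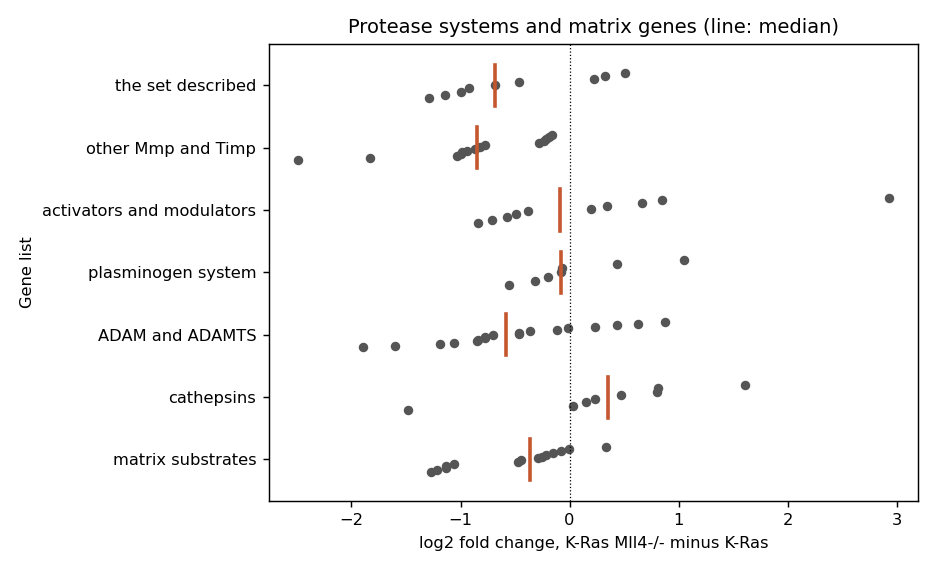
Log2 fold change (K-Ras Mll4-/- minus K-Ras, horizontal axis) of each tested gene in 7 gene lists, with an orange line at the median of each list. The median of the cathepsins lies above 0 and those of the other 6 lists lie below 0, with the activators and modulators (-0.09) and the plasminogen system (-0.07) closest to it.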

How the data were processed

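Each sample has a table of raw read counts per gene symbol, as deposited by the authors. The submitters' processing notes name CASAVA 1.4, STAR, HTSeq and the build mm9, without further versions. The gene annotation and strand setting are not given in the sources used here. HTSeq's tallies of reads outside the counted genes, among them reads with more than 1 alignment, made up 60.1% to 65.6% of all reads and were left out.

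Groups came from the sample titles. The fit, with edgeR 4.0.16 in R 4.3.3, used the robust quasi-likelihood test on all 4 samples, filterByExpr, TMM scaling and Benjamini-Hochberg adjustment over 16001 genes. A gene was called at an adjusted p under 0.05. SE is the absolute log2 fold change over the root of F, and CPM values are TMM-normalised. The tests were also run on simulated counts that gave every gene the same dispersion (spread beyond counting error). That setting differs from these samples, so it does not show how the tests behave here. Alternatives used DESeq2 1.42.0, limma 3.58.1 (voom), the likelihood ratio test, other scalings and filters, the replicate number as a block, GC and length offsets (mgcv 1.9.3) and each sample left out, keeping the same genes.

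The genes named are the set, all tested Mmp and Timp genes, the 2 smallest p-values of each related list, Kmt2d and Ptprc. Genes outside that rule (Marco, Csf1r, Adgre1, S100a8, Cxcr2, Lum, Kdr, Emcn and Msln) were named after their values were seen. Syn3 was named for its exon overlap and Ly6g because it was not matched. Marker lists cover fibroblasts, mural, endothelial, macrophage, neutrophil, alveolar type 2, club, ciliated, mesothelial and epithelial cells. The set and lists were chosen with earlier results of these data known. Promoter sequences are from RefSeq, GRCm38.p6, and no coordinates were carried over to mm9.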

Additional observations from a re-analysis of the deposited data

How the results depend on the processing

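Against 6 genes called over all genes, the other scalings, the filter of 10 reads in every sample and the GC and length offsets gave 4 to 8. No count filter gave 44, DESeq2 1601, the edgeR likelihood ratio test 1503 and limma-voom 0 (3159 at an unadjusted p under 0.05). Leaving out 1 sample at a time gave 0 to 524 calls, with 524 without K-Ras replicate 1 and 0 without each of the others. Those fits leave 1 sample in a group, which is assumed to vary like the other group.

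Of the 9 tested genes of the set, 0 were called in every alternative except DESeq2 (1) and the likelihood ratio test (1), both Mmp2. Leaving out each sample in turn gave 0 to 0 calls. Mmp2, Mmp15 and Timp2 kept a negative log2 fold change in all 15 alternatives each. The other 6 reversed in 1 alternative each. That was without K-Ras replicate 1 for Mmp9 (-1.34 to 0.49 over the samples left out), Mmp12 (-2.27 to 1.41), Timp1 (-2.07 to 0.42) and Timp3 (-0.22 to 0.85), without K-Ras replicate 2 for Mmp14 (-0.039 to 0.79) and without K-Ras Mll4-/- replicate 2 for Mmp3 (-0.38 to 1.04). The count of 3 genes whose groups do not overlap was 3 with each scaling. The count at an unadjusted p under 0.05, 2 in the main fit, was 1 with GC and length offsets. It was 3 with total counts, DESeq2 or the likelihood ratio test.

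Among the other genes named, over the samples left out, Mmp11 ran from -0.43 to 0.028, Mmp16 from -0.80 to 0.81, Mmp25 from -0.91 to 1.01 and Ptprc from -0.34 to 0.62. The first 3 reversed without K-Ras replicate 1, Mmp25 also without K-Ras Mll4-/- replicate 2 (0.057), and Ptprc without K-Ras replicate 2 and without K-Ras Mll4-/- replicate 1 (-0.29). With limma-voom Mmp16 reversed to 0.044 and Mmp25 to 0.051. For limma-voom the cause was not tested.

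The titles number the samples 1 and 2 in both groups, without saying what samples of a number share. Over all genes, the deviations of a K-Ras and a K-Ras Mll4-/- sample of like number had a correlation of 0.21. Adding a replicate block gave 217 calls, and adding it together with offsets for GC and length gave 373, with 0 of the 9 genes in both. Among the other genes named, the replicate block brought Pcsk6 (edgeR adjusted p = 0.0206) and Adamts15 (0.0289) past the threshold. With the offsets as well it did so for Pcsk6 (0.00687), Adamts15 (0.0269) and Ctsh (0.0406). The Mmp12 log2 fold change was -0.56 with the block. The block turned Mmp25 to 0.0040, and the block with the offsets turned it to 0.14.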
